A study of Mus musculus with 34 samples.

Results

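The gene expression of the infarcted left ventricle (LV) was compared between 24 and 48 h post-MI (myocardial infarction) in hearts that received Luc modRNA. The comparison takes 7 of the 34 libraries of the series, 3 at 24 h (A, C and D) and 4 at 48 h (1 to 4), chosen by the treatment and time in their labels. All came from CFW mice, an outbred stock, in which MI was made by tying off the LAD (the left anterior descending coronary artery) for good. Luc modRNA, a chemically modified mRNA for firefly luciferase, was injected into the border zone of the infarct right after the ligation. Luciferase is a reporter enzyme that has no function in the mouse heart. Every heart compared had both an infarct and an injection at the same moment, so time since the infarct and time since the injection cannot be told apart. The labels name no transgene, age or sex, and do not say that each library was a separate mouse, so a p-value measures the spread between these libraries. The 7 libraries share a table of 24 with 2 sham libraries, 4 with Luc modRNA at 4 h post-MI and 11 with AC modRNA at 4, 24 and 48 h, and a change was tested for 12555 of its 17406 genes.

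In the days after a coronary artery is closed, the dead muscle draws in neutrophils and then monocytes, which become macrophages that clear debris. The early phase carries cytokines, chemokines and interferon-stimulated genes, and the later phase carries cell division, fibroblast activation and new collagen, while the surviving cardiomyocytes lose part of their contractile and oxidative gene expression. Whole-tissue RNA was measured, so fewer cells of a type and less RNA per cell cannot be told apart.

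Expression is given in CPM, read counts scaled to a common library size, and values are listed in the order A, C, D and 1, 2, 3, 4. By the smallest step between values, the 24 h libraries held about 20011771 to 21324359 reads on the listed genes and the 48 h libraries 17091513 to 18645073, so that 1 read was worth 0.0365 to 0.0392 and 0.0277 to 0.0365 CPM. The genes of the sarcomere summed to 84551 to 109800.0 CPM at 24 h and 50184 to 71174 CPM at 48 h, as for heart muscle. All 7 libraries expressed Xist, the RNA of the inactive X chromosome. The 24 h libraries correlated with each other at 0.972 to 0.983 (Pearson's r of log2(CPM + 1) over the genes tested). The 48 h libraries formed a pair of pairs, with r = 0.984 between 1 and 3 and 0.984 between 2 and 4, against 0.945 to 0.969 across them. Libraries 1 and 3 stood closer to the 24 h libraries (0.932 to 0.957) than libraries 2 and 4 did (0.917 to 0.924) (fits without either pair are given where a call was lost). The sample names follow different patterns at 24 and 48 h, so a difference in how they were prepared or sequenced and the difference in time cannot be told apart.

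Of the 12555 genes, 5258 (41.9%) differed between 48 and 24 h at a limma adjusted p under 0.05, 1170 higher at 48 h (9.32%) and 4088 lower (32.6%). A change of at least 2-fold was found for 323 of the higher and 823 of the lower genes. The groups did not overlap in 5146 genes (41.0%), 1080 of them higher (8.60%) and 4066 lower (32.4%). The balance of higher and lower depended on the scaling. The median log2 difference of all genes was -0.25, and the 48 h libraries summed to 508204 to 641170 CPM over the listed genes against 730630 to 818456 at 24 h. When libraries were rescaled by the median ratio of their genes, 2025 genes were higher and 2053 lower (median -0.02). With equal totals, 3229 were higher and 948 lower (median 0.18). Gene lists are therefore described beside the median of all genes, and with their counts under both scalings where these change. Each such count is to be read against the count of all genes in the same fit.

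**Figure D1:**
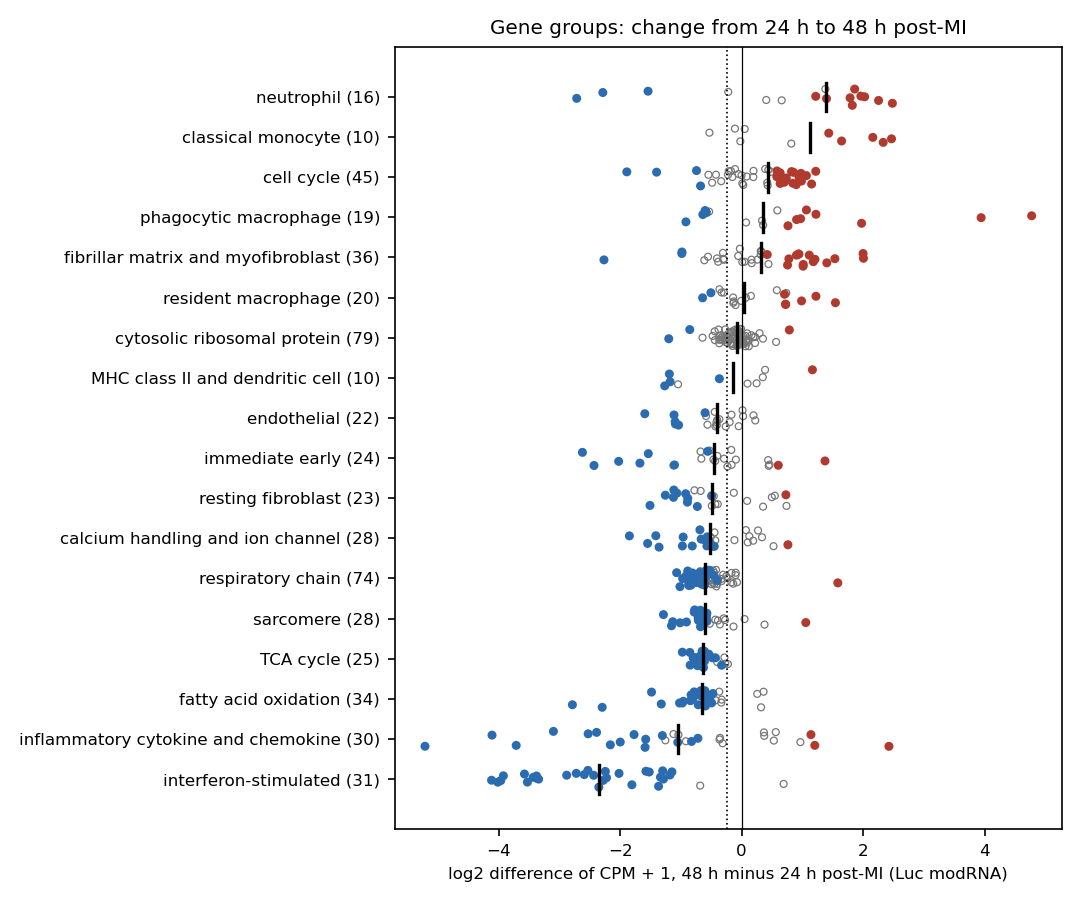
Median log2 difference of the tested members of each gene list, 48 h minus 24 h with Luc modRNA, with the number of members tested and called higher or lower. Interferon-stimulated genes (median -2.35) lie at the low end and neutrophil genes (median 1.39) at the high end, around a median of -0.25 for all genes.

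The gene list with the lowest median was that of interferon-stimulated genes, which cells switch on when they sense interferon or foreign nucleic acid. Of 31 such genes, 29 fell and none rose, with a median log2 difference of -2.35. The 2 others were Oas3 (log2 difference -0.68, limma adjusted p = 0.054) and Ifi27l2a (0.69, limma adjusted p = 0.4). Under the median-ratio and equal-total scalings 28 and 24 fell, and 30 and 27 fell without libraries 1 and 3 or without libraries 2 and 4. The summed level of the list was 198 to 232 CPM in the sham libraries, 471 to 766 CPM at 4 h post-MI, 3215 to 6427 CPM at 24 h and 546 to 1171 CPM at 48 h, so the 24 h libraries stood above all the others.

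Ifit2, an RNA-binding protein that restrains viral translation, was at 553, 883 and 351 CPM at 24 h and 33.5, 16.6, 73.5 and 22.4 CPM at 48 h (log2 difference -4.12 ± 0.58 (SE), limma adjusted p = 2.6e-05). Its mean fell from 596 ± 269 to 36.5 ± 25.6 CPM (SD, n = 3 and 4), with no overlap. Ifit3, of the same family, was at 651, 552 and 302 CPM at 24 h and 57.0, 22.7, 122 and 21.9 CPM at 48 h (log2 difference -3.43 ± 0.54 (SE), limma adjusted p = 7.0e-05). Its transcript is 97.8% identical to that of Ifit3b over 1700 bases, so the split of reads between them is uncertain. Isg15, a ubiquitin-like protein that is attached to other proteins, was at 111, 128 and 77.5 CPM at 24 h and 24.7, 14.2, 36.6 and 13.4 CPM at 48 h (log2 difference -2.28 ± 0.34 (SE), limma adjusted p = 4.3e-05). Libraries 1 and 3 held the higher levels at 48 h in all of these genes, and still lay under every 24 h library.

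Rsad2 (viperin), an antiviral enzyme, was at 276, 785 and 303 CPM at 24 h and 26.4, 10.4, 91.8 and 14.5 CPM at 48 h (log2 difference -3.97 ± 0.71 (SE), limma adjusted p = 2.2e-04). Mx1, an antiviral GTPase, was at 27.7, 127 and 76.6 CPM at 24 h and 2.64, 2.52, 7.77 and 2.16 CPM at 48 h (log2 difference -3.92 ± 0.67 (SE), limma adjusted p = 1.5e-04). Oasl1, an oligoadenylate synthetase-like protein, was at 127, 296 and 140.1 CPM at 24 h and 11.4, 5.14, 24.5 and 6.14 CPM at 48 h (log2 difference -4.01 ± 0.53 (SE), limma adjusted p = 1.4e-05). Each fell in every library at 48 h compared to every library at 24 h. Gm12250, known here by its predicted-gene symbol, moved with them, from 217, 156 and 33.2 CPM to 10.3, 5.73, 6.996 and 4.81 CPM (log2 difference -3.77 ± 0.53 (SE), limma adjusted p = 2.3e-05).

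Cxcl10 and Cxcl9, interferon-induced chemokines that attract T cells, were among the named genes with the deepest falls. Cxcl10 (mm10 chromosome 5, 92346639 to 92348890) was at 128, 115 and 84.95 CPM at 24 h and 1.13, 1.02, 7.66 and 0.968 CPM at 48 h (log2 difference -5.21 ± 0.59 (SE), limma adjusted p = 3.3e-06). Library 3 stood above the other 48 h libraries in both Cxcl10 and Mx1. Cxcl9 was at 142, 56.1 and 23.4 CPM at 24 h and 1.31, 0.555, 2.39 and 0.415 CPM at 48 h (log2 difference -4.84 ± 0.57 (SE), limma adjusted p = 5.0e-06). Psmb8 and Psmb9 are the interferon-induced catalytic subunits of the immunoproteasome, which trims peptides for presentation on MHC class I. Psmb8 fell from 79.8, 99.8 and 84.0 CPM to 32.7, 19.4, 21.1 and 18.4 CPM (log2 difference -1.92 ± 0.23 (SE), limma adjusted p = 5.5e-06), and Psmb9 from 22.9, 21.1 and 15.3 CPM to 6.42, 4.67, 4.48 and 4.70 CPM (log2 difference -1.77 ± 0.27 (SE), limma adjusted p = 4.9e-05).

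The promoters of these genes were searched for GAAANNGAAA, the core of the site that interferon-activated transcription factors bind, on both strands (the reverse complement is TTTCNNTTTC), between 250 bases before and 50 after the start of the gene (RefSeq sequences on GRCm38.p6). It was found in 14 of the 22 genes of the list with a promoter sequence (63.6%), against 377 of the 9737 tested genes with one (3.87%) and 1079 of all 27025 genes (3.99%). Of the genes called lower, 155 of 3167 held it (4.89%), and of those called higher, 34 of 893 (3.81%). The windows of Ifit2 and Oasl1 did not hold these letters. In those of Cxcl9 and Psmb9 no match lay before the start of the gene with 10 bases on either side. The rest of these 2 windows is not described here. The first match before the start of the gene is shown for 5 of the genes above, 5′ to 3′ on the strand of the gene. Its letters are in capitals, as examples of the match in genes that fell. In Isg15 a further match overlaps the marked one and runs into the lower-case letters. A match is a description of the sequence and not a measured binding site.
Ifit3, chr19:34583363-34583392, plus strand: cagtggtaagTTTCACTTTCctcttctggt
Isg15, chr4:156200877-156200906, minus strand: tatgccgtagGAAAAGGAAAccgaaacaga
Rsad2, chr12:26456553-26456582, minus strand: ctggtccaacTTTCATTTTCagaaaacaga
Cxcl10, chr5:92349083-92349112, minus strand: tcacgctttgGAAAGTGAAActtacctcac
Gm12250, chr11:58183742-58183771, plus strand: cctcggtggcTTTCAGTTTCtatgcctaga

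**Figure D2:**
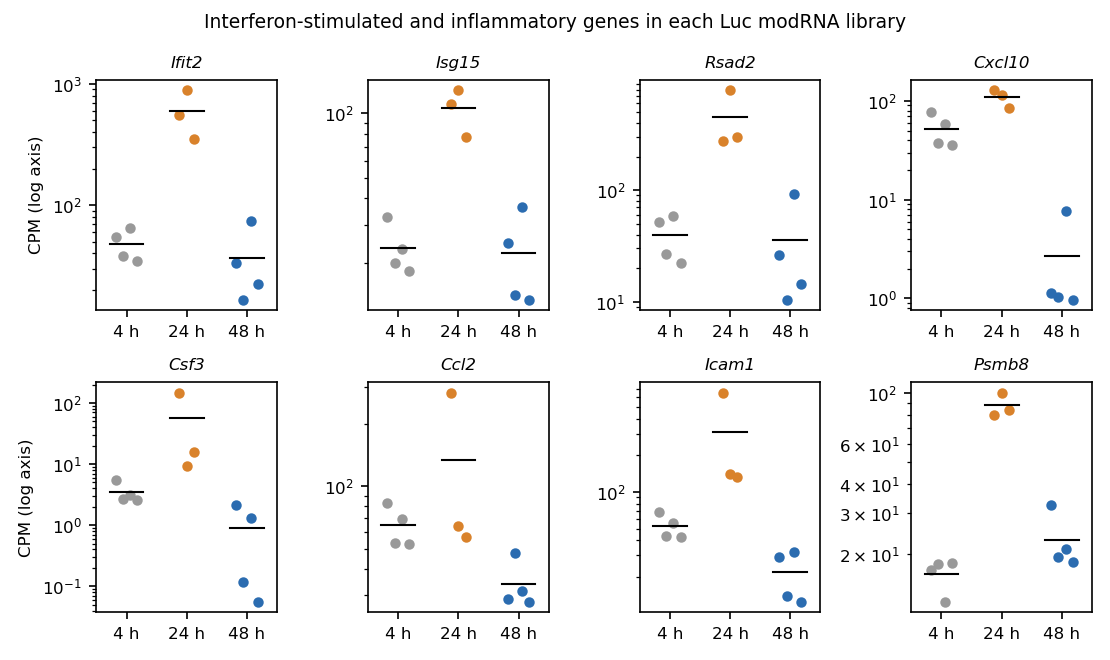
CPM on a log axis of 8 interferon-stimulated, cytokine and adhesion genes in each Luc modRNA library at 4, 24 and 48 h post-MI, with a line at the arithmetic mean. The points of 24 h lie above all points of 48 h in every panel, and in Csf3, Ccl2 and Icam1 library A lies above C and D.

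Inflammatory cytokines and chemokines were called lower more often than all genes, an excess that was small without library A. Of 30, 15 fell (50%, against 32.6% of all genes) and 3 rose (10%, against 9.32%), with a median log2 difference of -1.05. Under the median-ratio and equal-total scalings 11 and 10 fell. The count of those that fell was 9 without library A, in which the summed level of the list reached 2871 CPM. In that fit 3621 of all 12555 genes fell, a similar share. Il6 (log2 difference -3.10, limma adjusted p = 4.2e-04) and Tnf (-2.39, limma adjusted p = 0.0017), the classical cytokines of acute inflammation, were among those that fell. Il1b, an early cytokine made by neutrophils and macrophages, did not pass the test, at 22.6, 10.2 and 8.62 CPM at 24 h and 11.4, 8.82, 11.5 and 7.55 CPM at 48 h (log2 difference -0.36 ± 0.29 (SE), limma adjusted p = 0.34). The 3 that rose were Ccl6 (log2 difference 2.43), Ccl9 (1.14) and Pf4 (1.20), chemokines made by myeloid cells and platelets.

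Csf3, the growth factor that drives neutrophil production (G-CSF), was at 147, 9.20 and 15.99 CPM at 24 h and 2.15, 0.117, 1.29 and 0.0553 CPM at 48 h (log2 difference -4.11 ± 0.79 (SE), limma adjusted p = 4.1e-04). At 48 h libraries 2 and 4 were at a few reads and libraries 1 and 3 at more. Ptx3, a secreted pattern-recognition protein, was at 371, 169 and 111 CPM at 24 h and 22.7, 8.35, 20.1 and 5.89 CPM at 48 h (log2 difference -3.84 ± 0.63 (SE), limma adjusted p = 1.0e-04). Ccl2, the main attractant of monocytes, was at 282, 64.2 and 56.8 CPM at 24 h and 28.5, 47.7, 31.3 and 27.6 CPM at 48 h (log2 difference -1.59 ± 0.45 (SE), limma adjusted p = 0.0079). Library A held most of the Ccl2 at 24 h, and without it the log2 difference was -0.85 (limma adjusted p = 0.098), while with equal totals it was -1.12 (limma adjusted p = 0.067).

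The leukocyte adhesion molecules Icam1, Sele, Selp and Vcam1 of the vessel wall fell. Of the whole list of 18 genes of endothelial activation and angiogenesis, 6 fell (33.3%, near the 32.6% of all genes) and 2 rose (median -0.09). Icam1, to which neutrophils and monocytes bind, was at 655, 141 and 132 CPM at 24 h and 29.4, 13.96, 32.3 and 12.4 CPM at 48 h (log2 difference -3.44 ± 0.65 (SE), limma adjusted p = 3.5e-04). Sele (E-selectin), on which leukocytes roll, was at 85.2, 10.5 and 9.68 CPM at 24 h and 4.38, 2.34, 4.14 and 2.05 CPM at 48 h (log2 difference -2.42 ± 0.70 (SE), limma adjusted p = 0.0089), and without library A it missed the threshold (log2 difference -1.43, limma adjusted p = 0.099), as it did without libraries 2 and 4 (log2 difference -2.06, limma adjusted p = 0.075). The other members that fell were Selp, Vcam1, Flt4 and Ackr1. The 2 that rose were Apln (log2 difference 0.95), the apelin of growing vessels, and Esm1 (0.58), a tip-cell gene, and without any 1 of libraries A, D, 2 or 4 only 1 of them rose.

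Among neutrophil genes more rose than fell. Of 16 neutrophil genes, 9 rose and 3 fell (median 1.39), and 10 rose and 2 fell under both other scalings. The count of those that rose depended on libraries 1 and 3. Without them 3 rose and 3 fell, whereas 12 rose and 2 fell without libraries 2 and 4, and 5 rose and 3 fell without library D. S100a8, a calcium-binding protein that fills neutrophil cytoplasm, was at 15.6, 8.94 and 8.89 CPM at 24 h and 113, 51.6, 41.1 and 19.9 CPM at 48 h (log2 difference 2.03 ± 0.57 (SE), limma adjusted p = 0.0073), and without libraries 1 and 3 its log2 difference was 1.49 (limma adjusted p = 0.069). Csf3r, the receptor for Csf3, was at 6.93, 3.83 and 4.35 CPM at 24 h and 40.4, 31.2, 22.9 and 35.9 CPM at 48 h (log2 difference 2.48 ± 0.37 (SE), limma adjusted p = 4.9e-05), and kept its call under every alternative.

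The 3 members that fell were Ngp (log2 difference -2.72), a granule protein of young neutrophils, Lcn2 (-1.54), an iron-scavenging granule protein that cardiomyocytes and other cells also express, and Hdc, the enzyme that makes histamine. Hdc was at 50.2, 62.0 and 47.6 CPM at 24 h and 29.5, 4.94, 19.3 and 3.07 CPM at 48 h (log2 difference -2.29 ± 0.47 (SE), limma adjusted p = 6.8e-04), with libraries 1 and 3 under the 24 h levels and libraries 2 and 4 lower still. Because Lcn2 was abundant, the summed level of all 22 neutrophil genes in the table overlapped between 24 h (411 to 1341 CPM) and 48 h (332 to 979 CPM). At 4 h it was 117 to 227 CPM, and in sham hearts 11.9 to 31.6 CPM.

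Genes of the classical monocyte, the precursor of infarct macrophages, rose in 5 of 10 and fell in none (median 1.13), with 3 rising without libraries 1 and 3. Ccr2, the receptor through which monocytes follow Ccl2, was at 0.888, 0.857 and 0.862 CPM at 24 h and 7.81, 12.04, 6.63 and 12.03 CPM at 48 h (log2 difference 2.47 ± 0.29 (SE), limma adjusted p = 4.2e-06). F13a1, a clotting factor subunit of monocytes and macrophages, was at 24.1, 11.7 and 15.4 CPM at 24 h and 65.6, 59.2, 41.6 and 50.3 CPM at 48 h (log2 difference 1.65 ± 0.32 (SE), limma adjusted p = 4.1e-04). Chil3, a chitinase-like protein of monocytes and alternatively activated macrophages, was at 8.42, 1.24 and 1.96 CPM at 24 h and 68.3, 20.4, 23.4 and 3.37 CPM at 48 h (log2 difference 2.33 ± 0.69 (SE), limma adjusted p = 0.01), with library 1 highest and library 4 lowest at 48 h. Without libraries 1 and 3 it missed the threshold (log2 difference 1.29, limma adjusted p = 0.16), and without library C as well (log2 difference 1.92, limma adjusted p = 0.06). Ly6c2, whose transcript is 97.6% identical to that of the endothelial gene Ly6c1 over 822 bases, did not pass the test (8.04, 2.40 and 1.949 CPM at 24 h and 10.97, 6.24, 6.66 and 4.92 CPM at 48 h, with a log2 difference of 0.82 ± 0.44 (SE), limma adjusted p = 0.14).

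Myeloid genes also led the list of single increases. Ccl6, a chemokine of neutrophils and macrophages, was at 27.5, 6.13 and 12.1 CPM at 24 h and 101, 109, 61.9 and 42.5 CPM at 48 h (log2 difference 2.43 ± 0.41 (SE), limma adjusted p = 1.4e-04). Ccr1, a chemokine receptor of monocytes and neutrophils, was at 7.99, 4.89 and 2.98 CPM at 24 h and 39.3, 20.9, 31.8 and 15.5 CPM at 48 h (log2 difference 2.14 ± 0.34 (SE), limma adjusted p = 7.9e-05). Adam8, a protease on leukocytes, was at 13.2, 5.51 and 3.06 CPM at 24 h and 44.7, 27.6, 30.8 and 20.02 CPM at 48 h (log2 difference 2.08 ± 0.43 (SE), limma adjusted p = 8.1e-04). None of the 3 overlapped between the groups, and library A was the highest at 24 h in each.

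The largest increase of any named gene was that of Arg1 (mm10 chromosome 10, 24915207 to 24927471), arginase 1, which turns arginine into ornithine and marks macrophages of tissue repair. Arg1 was at 0.547, 0.402 and 0.118 CPM at 24 h and 51.5, 54.3, 24.0 and 24.2 CPM at 48 h (log2 difference 4.78 ± 0.45 (SE), limma adjusted p = 5.1e-07). It was at 0.0338 to 0.175 CPM at 4 h and at 0 in both sham libraries. Spp1 (osteopontin), a secreted matrix protein of infarct macrophages, was at 2.41, 1.28 and 2.19 CPM at 24 h and 31.5, 148, 7.86 and 93.4 CPM at 48 h (log2 difference 3.94 ± 0.59 (SE), limma adjusted p = 4.3e-05). The 48 h libraries spread widely in Spp1, with 2 and 4 above 1 and 3. Its log2 difference was 5.35 without libraries 1 and 3 and 2.54 without libraries 2 and 4.

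Of 19 genes of phagocytic macrophages, 8 rose (42.1%, against 9.32% of all genes) and 5 fell (median 0.35). Under the median-ratio and equal-total scalings 9 and 11 rose and 2 and none fell. Those that rose included Trem2, Cd68, Lgals3 and Fabp5. The 5 that fell were the lysosomal proteases Ctsd (log2 difference -0.59), Ctsb (-0.60) and Ctsl (-0.64) and the lipid genes Apoe (-0.92) and Lpl (-0.58), which many heart cells express. Gpnmb, a membrane protein of lipid-laden macrophages, did not pass the test (log2 difference 0.59 ± 0.31 (SE), limma adjusted p = 0.13).

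Genes of the macrophages that live in the healthy heart went both ways. Of 20, 6 rose and 2 fell (median 0.03), and the 2 that fell were C1qb and Gas6. Mrc1, a mannose receptor for uptake of glycoproteins, was at 17.0, 12.3 and 14.3 CPM at 24 h and 35.9, 31.4, 20.8 and 32.5 CPM at 48 h (log2 difference 0.99 ± 0.21 (SE), limma adjusted p = 0.0011). Cd163, a scavenger receptor for haemoglobin, was at 12.4, 6.39 and 10.0 CPM at 24 h and 24.0, 13.03, 14.5 and 14.5 CPM at 48 h (log2 difference 0.73 ± 0.24 (SE), limma adjusted p = 0.02), and without library 1 the log2 difference was 0.54 (limma adjusted p = 0.073). Without library C it was 0.49 (limma adjusted p = 0.15), and without libraries 1 and 3 0.52 (limma adjusted p = 0.13). Lyve1, a hyaluronan receptor of resident macrophages and lymphatic vessels, did not pass the test (log2 difference -0.14 ± 0.23 (SE), limma adjusted p = 0.66).

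The MHC class II genes H2-Aa, H2-Ab1 and Cd74 fell, while the list that holds them stood near all genes. Of 10 MHC class II and dendritic cell genes, H2-Aa, H2-Ab1, Cd74 and Clec9a fell (40%, against 32.6% of all genes). Itgax rose and 5 were not called (median -0.13, against -0.25 for all genes). H2-Aa, a chain of the MHC class II molecule, was at 34.6, 38.9 and 50.6 CPM at 24 h and 19.9, 16.4, 20.1 and 13.7 CPM at 48 h (log2 difference -1.19 ± 0.23 (SE), limma adjusted p = 4.2e-04). Cd74, the invariant chain that guides it, was at 97.9, 132 and 161 CPM at 24 h and 65.3, 55.7, 45.9 and 45.4 CPM at 48 h (log2 difference -1.27 ± 0.28 (SE), limma adjusted p = 0.0012). The sum of the 15 genes of the list in the table was 188 to 300.5 CPM at 24 h and 99.6 to 132 CPM at 48 h, under the 255 to 267 CPM of the sham libraries. T cell, B cell and NK cell genes were scarce, as 20 of them summed to 9.59 to 16.7 CPM at 24 h and 4.98 to 23.2 CPM at 48 h, and of the 2 that were abundant enough to test Il2rb fell. Of mast cell and eosinophil genes 1 could be tested, and it was not called.

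**Figure D3:**
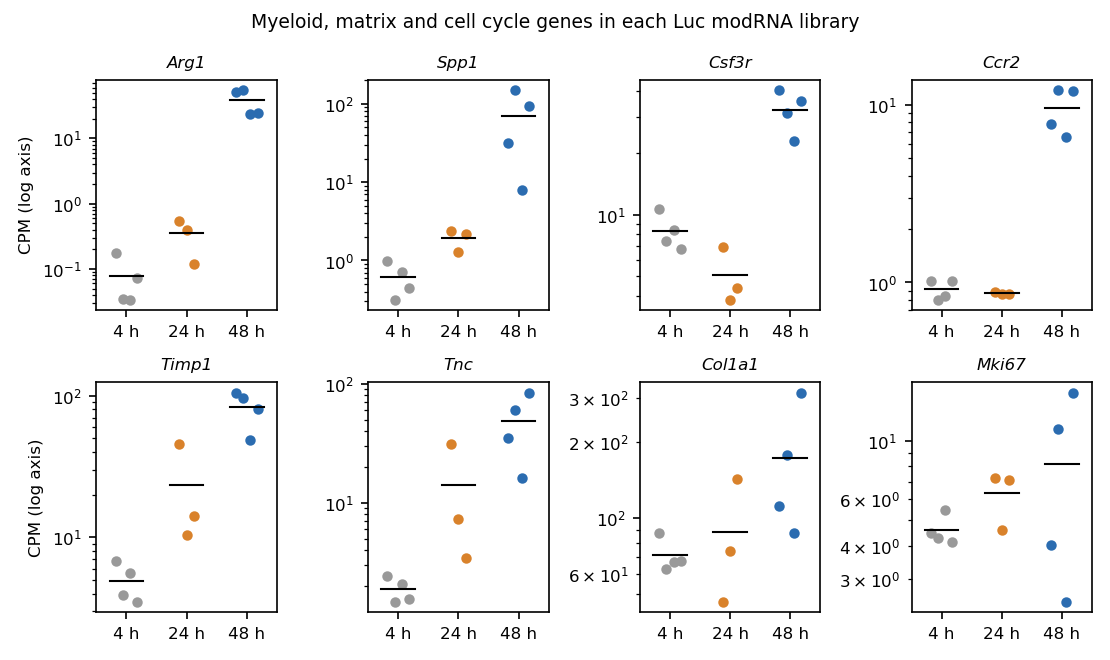
CPM on a log axis of 8 genes of neutrophils, monocytes, macrophages, matrix and cell division in each Luc modRNA library at 4, 24 and 48 h post-MI, with a line at the mean. The 48 h libraries of Arg1 lie above all 24 h libraries, and Spp1 and Mki67 spread across the 48 h libraries.

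Of the remaining genes among the 10 largest increases, Nmrk2, a muscle kinase that makes NAD from nicotinamide riboside, was at 85.8, 7.30 and 14.5 CPM at 24 h and 290.4, 268, 305 and 111 CPM at 48 h (log2 difference 3.35 ± 0.69 (SE), limma adjusted p = 7.3e-04). Tfrc, the transferrin receptor for iron uptake, was at 11.7, 11.4 and 11.2 CPM at 24 h and 103, 119.6, 24.9 and 92.1 CPM at 48 h (log2 difference 2.58 ± 0.43 (SE), limma adjusted p = 1.3e-04). Xpo1, the carrier that exports proteins from the nucleus, was at 8.28, 5.48 and 6.23 CPM at 24 h and 25.9, 37.4, 20.3 and 40.6 CPM at 48 h (log2 difference 2.03 ± 0.23 (SE), limma adjusted p = 2.7e-06). The groups did not overlap in any of them, and library 3 was the lowest at 48 h in Tfrc and Xpo1.

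Part of the matrix genes rose at 48 h. Of 36 genes of fibrillar matrix and myofibroblasts, 15 rose (41.7%, against 9.32% of all genes) and 3 fell (median 0.31). Under the median-ratio and equal-total scalings 20 and 21 rose, where 2025 and 3229 of all 12555 genes did. The count rested partly on single libraries. It was 8 risen and 5 fallen without library A, 9 and 6 without library 4, and 7 and 4 without libraries 2 and 4. The 3 that fell were Comp (log2 difference -2.27), Cilp (-0.99) and Loxl3 (-0.98), the first and second of these being proteins of cartilage-like matrix.

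Timp1, an inhibitor of matrix metalloproteinases, was at 45.7, 10.3 and 14.1 CPM at 24 h and 105, 96.5, 48.8 and 80.0 CPM at 48 h (log2 difference 2.01 ± 0.42 (SE), limma adjusted p = 7.8e-04). Tnc (tenascin C), a glycoprotein of matrix under repair, was at 31.4, 7.37 and 3.45 CPM at 24 h and 35.2, 60.8, 16.2 and 84.2 CPM at 48 h (log2 difference 2.00 ± 0.57 (SE), limma adjusted p = 0.0077), and without library D it missed the threshold (log2 difference 1.37, limma adjusted p = 0.084), and likewise without libraries 2 and 4 (log2 difference 1.23, limma adjusted p = 0.14). Col1a1, a chain of the main scar collagen, was at 46.6, 74.3 and 144 CPM at 24 h and 112, 179, 87.1 and 315 CPM at 48 h (log2 difference 0.94 ± 0.36 (SE), limma adjusted p = 0.038). It passed the threshold narrowly, with a log2 difference of 0.56 without library A (limma adjusted p = 0.24) and 0.60 without library 4 (limma adjusted p = 0.15), and it was also lost without library C or 2. Without libraries 2 and 4 it was 0.31 (limma adjusted p = 0.51). Postn (periostin), which activated fibroblasts secrete, did not pass the test, at 82.7, 65.1 and 80.5 CPM at 24 h and 92.8, 86.8, 75.3 and 112 CPM at 48 h (log2 difference 0.26 ± 0.21 (SE), limma adjusted p = 0.32).

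Genes of resting fibroblasts were called lower somewhat more often than all genes, and most were not called. Of 23, 10 fell (43.5%, against 32.6% of all genes) and Mfap5 rose (median -0.49), with 7 and 4 falling and 4 rising under each of the median-ratio and equal-total scalings. Gsn (gelsolin), which cuts actin filaments, was at 1476, 1614 and 2239 CPM at 24 h and 850.3, 413, 706 and 569 CPM at 48 h (log2 difference -1.51 ± 0.20 (SE), limma adjusted p = 1.3e-05). Smoc2, a secreted calcium-binding matrix protein, was at 134, 162 and 144 CPM at 24 h and 70.8, 40.5, 94.4 and 49.6 CPM at 48 h (log2 difference -1.26 ± 0.23 (SE), limma adjusted p = 2.9e-04). Both were lower in every 48 h library. Dcn (decorin), a small collagen-binding proteoglycan, was at 622, 611 and 692 CPM at 24 h and 568, 393, 484 and 396 CPM at 48 h (log2 difference -0.49 ± 0.15 (SE), limma adjusted p = 0.0098), a fall that missed the threshold under both other scalings (log2 difference -0.24 and -0.01), without library D (-0.44) and without libraries 2 and 4 (-0.29). Pdgfra, the growth factor receptor that marks fibroblasts, did not pass the test (log2 difference -0.13 ± 0.21 (SE), limma adjusted p = 0.64).

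Of 15 basement membrane genes, 5 fell (33.3%, near the 32.6% of all genes), namely Col4a1, Col4a2, Col4a3, Col4a4 and Lamb2 (median -0.44). Under the median-ratio and equal-total scalings 3 and none fell, and 3 fell without library D. Col4a1, a chain of basement membrane collagen, was at 1017, 873 and 1077 CPM at 24 h and 645, 347, 673 and 424 CPM at 48 h (log2 difference -0.97 ± 0.25 (SE), limma adjusted p = 0.0046). Its call was lost with equal totals (-0.49) and without libraries 2 and 4 (-0.58). Of 26 matrix proteases and their inhibitors, 8 rose and 6 fell (median 0.18). Those that rose included the leukocyte proteases Mmp8, Mmp9 and Mmp12. Mmp14, which activates other metalloproteinases at the cell surface, did not pass the test (log2 difference -0.28 ± 0.23 (SE), limma adjusted p = 0.32). Mmp3 (stromelysin) spread across the libraries, at 20.9, 3.72 and 4.08 CPM at 24 h and 42.6, 5.31, 26.0 and 4.17 CPM at 48 h (log2 difference 0.79 ± 0.67 (SE), limma adjusted p = 0.35), with libraries 1 and 3 above 2 and 4.

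Cell division genes differed between the 48 h libraries. Of 45 cell cycle genes, 18 rose (40%, against 9.32% of all genes) and 4 fell (median 0.43). Under the median-ratio and equal-total scalings 21 and 25 rose, where 2025 and 3229 of all 12555 genes did. Without libraries 1 and 3, 26 rose and 1 fell, and without libraries 2 and 4 none rose and 7 fell. Leaving out library C, 2 or 4 brought the count that rose to 11, 10 and 10. Mki67, a protein of dividing cells, was at 7.22, 4.60 and 7.13 CPM at 24 h and 4.01, 11.1, 2.45 and 15.2 CPM at 48 h (log2 difference 0.08 ± 0.45 (SE), limma adjusted p = 0.89). Top2a, which untangles DNA before division, was at 2.41, 3.47 and 2.78 CPM at 24 h and 5.0001, 7.51, 1.36 and 12.3 CPM at 48 h (log2 difference 0.71 ± 0.36 (SE), limma adjusted p = 0.12). In both genes libraries 2 and 4 lay above libraries 1 and 3, and without the latter the log2 difference of Top2a was 1.46 (limma adjusted p = 4.5e-04).

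The 4 that fell were Cdkn1a, Ccnd2, Ccne1 and Cenpf. Cdkn1a (p21), an inhibitor that stops the cell cycle in damaged cells, was at 496, 588 and 581 CPM at 24 h and 344, 89.9, 363 and 42.8 CPM at 48 h (log2 difference -1.89 ± 0.48 (SE), limma adjusted p = 0.0035). Libraries 2 and 4 held the lowest levels, and the log2 difference was -3.14 without libraries 1 and 3 and -0.65 without libraries 2 and 4 (limma adjusted p = 0.092). Cenpf, a kinetochore protein, was at 6.31, 16.8 and 19.3 CPM at 24 h and 1.68, 3.59, 1.76 and 21.1 CPM at 48 h (log2 difference -1.40 ± 0.51 (SE), limma adjusted p = 0.032), a call that was lost under both other scalings and without each of libraries C, D, 1, 2 and 3, with -0.46 without libraries 1 and 3.

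Cardiomyocyte genes fell. Of 28 sarcomere genes, the contractile apparatus of heart muscle, 17 fell and Xirp2 (log2 difference 1.06), a protein of stressed cell junctions, rose (median -0.60). All genes had a median of -0.25, and 32.6% of them fell, against 60.7% of the sarcomere genes. The count depended on the scaling, as 7 and 3 sarcomere genes fell under the median-ratio and equal-total scalings. Of all 12555 genes, 2053 and 948 fell under these. It was 9 without library D and 11 without library 2. Myh6, the fast myosin heavy chain of the adult mouse heart, was at 24992, 21302 and 27749 CPM at 24 h and 14747, 8953, 12348 and 9572 CPM at 48 h (log2 difference -1.13 ± 0.23 (SE), limma adjusted p = 7.3e-04). Its transcript shares 465 bases at 98.3% identity with that of Myh7. Mybpc3, a myosin-binding protein, was at 2103, 2269 and 3126 CPM at 24 h and 955, 991, 989 and 1591 CPM at 48 h (log2 difference -1.15 ± 0.19 (SE), limma adjusted p = 9.9e-05), and Tcap (telethonin), which caps titin, at 1187, 1174 and 1456 CPM at 24 h and 698, 412, 499.9 and 500.1 CPM at 48 h (log2 difference -1.29 ± 0.23 (SE), limma adjusted p = 2.1e-04). These 3 kept their calls under every alternative. Tnnt2 (cardiac troponin T) was at 8603, 8091 and 11345 CPM at 24 h and 8105, 5428, 6424 and 5302 CPM at 48 h (log2 difference -0.57 ± 0.18 (SE), limma adjusted p = 0.016), and its log2 difference was -0.32 and -0.09 under the other scalings, -0.42 without library D, -0.51 without library 2 and -0.36 without libraries 2 and 4, in each of which it missed the threshold.

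Of 28 genes of calcium handling and ion channels, 15 fell (53.6%, against 32.6% of all genes) and Gja1 (connexin 43) rose (median -0.52). Under the median-ratio and equal-total scalings 7 and 5 fell, where 2053 and 948 of all 12555 genes did. Without library D 10 fell. Atp2a2 (SERCA2a), the pump that refills the calcium store between beats, was at 10451, 9766 and 10213 CPM at 24 h and 6112, 4396, 5371 and 5075 CPM at 48 h (log2 difference -0.96 ± 0.15 (SE), limma adjusted p = 7.1e-05). It was at 9023 to 10438 CPM at 4 h, close to the 24 h level. Kcnh2 and Kcnip2 belong to potassium channels that repolarize the heart. Kcnh2 was at 92.3, 94.9 and 106 CPM at 24 h and 27.6, 30.4, 29.0 and 47.0 CPM at 48 h (log2 difference -1.55 ± 0.24 (SE), limma adjusted p = 6.0e-05), and Kcnip2 at 125, 175 and 182 CPM at 24 h and 31.5, 72.0, 44.8 and 118 CPM at 48 h (log2 difference -1.41 ± 0.29 (SE), limma adjusted p = 8.0e-04). Ryr2, the calcium release channel, was at 1081, 903 and 927 CPM at 24 h and 600.4, 655, 551 and 725 CPM at 48 h (log2 difference -0.62 ± 0.23 (SE), limma adjusted p = 0.037), a call that was lost in 11 of 20 alternatives, including each library left out except library 4.

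Genes of the stressed heart went both ways. Of 16 fetal and stress genes, 3 rose (Nppa, Nppb and Nes) and 5 fell (Myh7, Actc1, Mybpc2, Tnnt1 and Cdkn1a), with a median of -0.17. The share that fell was 31.2%, near the 32.6% of all genes. Nppa (atrial natriuretic peptide), which the ventricle makes under strain, was at 460.2, 316 and 324 CPM at 24 h and 1089, 897, 491 and 1106 CPM at 48 h (log2 difference 1.24 ± 0.36 (SE), limma adjusted p = 0.0088), and without libraries 2 and 4 it missed the threshold (log2 difference 1.02, limma adjusted p = 0.082). Nppb (brain natriuretic peptide) was at 500.1, 197 and 344 CPM at 24 h and 990.1, 776, 682 and 389 CPM at 48 h (log2 difference 1.05 ± 0.34 (SE), limma adjusted p = 0.018), and without library C its log2 difference was 0.69 (limma adjusted p = 0.14), while it also missed the threshold without library 1 and without libraries 1 and 3 (0.76). Nes (nestin), an intermediate filament of immature and repairing cells, was at 48.3, 27.8 and 29.6 CPM at 24 h and 126, 77.4, 79.6 and 112 CPM at 48 h (log2 difference 1.47 ± 0.28 (SE), limma adjusted p = 4.1e-04).

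Genes that burn fatty acids in mitochondria, the main fuel of the adult heart, fell in 27 of 34 and rose in none (median -0.65). The share that fell was 79.4%, against 32.6% of all genes. Under the median-ratio and equal-total scalings 17 and 10 fell and 1 and 3 rose, where 2053 and 948 of all 12555 genes fell. Cpt1b, which admits fatty acids into the mitochondrion, was at 637, 579.6 and 707 CPM at 24 h and 428, 379, 373 and 379 CPM at 48 h (log2 difference -0.71 ± 0.12 (SE), limma adjusted p = 1.3e-04). Acadm, a dehydrogenase of the oxidation cycle, was at 1217, 1209 and 1278 CPM at 24 h and 837, 629.6, 717 and 594 CPM at 48 h (log2 difference -0.84 ± 0.13 (SE), limma adjusted p = 5.0e-05). Neither gene overlapped between the groups, though with equal totals Cpt1b missed the threshold (log2 difference -0.24, limma adjusted p = 0.11). Pdk4, a kinase that blocks glucose oxidation, was at 2126, 2972 and 2618 CPM at 24 h and 716, 209, 1332 and 91.6 CPM at 48 h (log2 difference -2.79 ± 0.59 (SE), limma adjusted p = 8.6e-04), and Ucp3, an uncoupling protein induced by fatty acids, at 102, 148 and 75.8 CPM at 24 h and 34.5, 12.4, 67.7 and 5.56 CPM at 48 h (log2 difference -2.30 ± 0.51 (SE), limma adjusted p = 0.0013). Both fell more in libraries 2 and 4 than in 1 and 3, with log2 differences of -4.19 and -3.49 without libraries 1 and 3, against -1.38 and -1.10 without libraries 2 and 4.

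Enzymes of the TCA cycle fell in 21 of 25 (84%, against 32.6% of all genes) and rose in none (median -0.63). Under the other scalings 14 and 5 fell. Idh2, the mitochondrial isocitrate dehydrogenase, was at 1425, 1544 and 1679.9 CPM at 24 h and 909, 638, 849.6 and 772 CPM at 48 h (log2 difference -0.98 ± 0.14 (SE), limma adjusted p = 2.3e-05). Cs, the citrate synthase that opens the cycle, was at 1654, 1675 and 1692 CPM at 24 h and 1205, 971, 1059 and 946 CPM at 48 h (log2 difference -0.69 ± 0.11 (SE), limma adjusted p = 1.0e-04), and Sdhc, a membrane subunit of succinate dehydrogenase, at 576, 602 and 636 CPM at 24 h and 416, 308, 352 and 276 CPM at 48 h (log2 difference -0.85 ± 0.16 (SE), limma adjusted p = 4.2e-04). Every 48 h library lay below every 24 h library in the 3 genes, and Cs lost its call with equal totals (log2 difference -0.21, limma adjusted p = 0.1).

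Of 74 nuclear-encoded subunits of the respiratory chain, 39 fell (52.7%, against 32.6% of all genes) and 1 rose (median -0.60). Under the other scalings 8 and 6 fell, with 12 without library D, 24 without library 2 and 22 without library 4. Of all 12555 genes, 2053 and 948 fell under those scalings, and 2952, 3370 and 3878 without library D, 2 or 4. The share of the list was thus not above that of all genes under the median-ratio scaling or without library D or 4. Ndufs1, the largest subunit of complex I, was at 704, 621 and 684 CPM at 24 h and 523, 356, 418 and 361 CPM at 48 h (log2 difference -0.71 ± 0.13 (SE), limma adjusted p = 3.2e-04), and was not called with equal totals (log2 difference -0.23, limma adjusted p = 0.1). Cox5a, of complex IV, did not pass the test (log2 difference -0.44 ± 0.22 (SE), limma adjusted p = 0.12). The one that rose was Cox7c, also of complex IV, at 12.2, 15.3 and 14.6 CPM at 24 h and 49.0, 56.0, 43.3 and 31.0 CPM at 48 h (log2 difference 1.58 ± 0.30 (SE), limma adjusted p = 3.8e-04). Its transcript is 100% identical to Gm12338 over 192 bases and 99.0% to Gm10012, and the sum over Cox7c and these copies went the other way, from 480.0 to 602 CPM at 24 h to 258 to 394 CPM at 48 h. The rise of Cox7c alone can therefore not be told apart from a different split of reads between the copies.

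Genes of sugar use and of the hypoxia response split. Of 32, 8 rose (25%, against 9.32% of all genes) and 12 fell (37.5%, against 32.6%), with a median of -0.19. Under the median-ratio and equal-total scalings 10 and 13 rose and 6 and 4 fell. Of all 12555 genes, 2025 and 3229 rose and 2053 and 948 fell under these. Slc16a3, the exporter of lactate, was at 11.3, 4.67 and 5.76 CPM at 24 h and 45.1, 18.1, 46.4 and 22.3 CPM at 48 h (log2 difference 2.01 ± 0.39 (SE), limma adjusted p = 4.9e-04). The hypoxia-induced genes Vegfa (log2 difference 1.03), Car9, Egln3 and Ankrd37 also rose. Those that fell were mostly muscle forms and central enzymes of glycolysis, such as Pfkm, Pgam2, Eno3 and Slc2a4. Pfkfb3, which speeds glycolysis, was at 233, 164 and 65.6 CPM at 24 h and 61.5, 14.3, 49.5 and 11.8 CPM at 48 h (log2 difference -2.29 ± 0.58 (SE), limma adjusted p = 0.0036), and without libraries 2 and 4 it missed the threshold (-1.29). Slc2a1, the basal glucose transporter, did not pass the test (log2 difference 0.53 ± 0.25 (SE), limma adjusted p = 0.096), nor did Ldha, lactate dehydrogenase A (log2 difference -0.35 ± 0.18 (SE), limma adjusted p = 0.12).

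**Figure D4:**
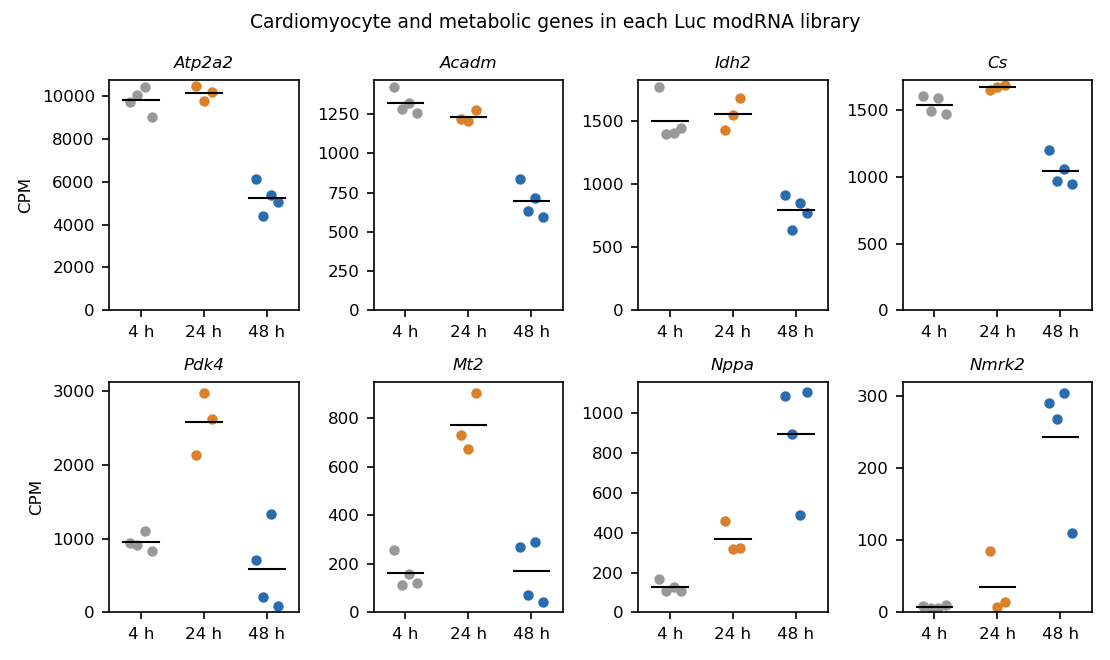
CPM of 8 cardiomyocyte, metabolic and stress genes in each Luc modRNA library at 4, 24 and 48 h post-MI, with a line at the mean. Atp2a2, Acadm, Idh2 and Cs were close at 4 and 24 h and lower in all 48 h libraries, whereas Nppa and Nmrk2 were higher.

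Endothelial genes were called lower no more often than all genes. Of 22, 6 fell (27.3%, against 32.6% of all genes) and none rose (median -0.41). Robo4, a receptor that steadies the endothelial barrier, was at 123.4, 102 and 97.6 CPM at 24 h and 39.3, 25.5, 45.9 and 31.8 CPM at 48 h (log2 difference -1.59 ± 0.20 (SE), limma adjusted p = 9.9e-06). Cdh5 (VE-cadherin), which joins endothelial cells, was at 232, 265 and 236 CPM at 24 h and 131, 80.0, 118 and 127 CPM at 48 h (log2 difference -1.11 ± 0.25 (SE), limma adjusted p = 0.0014), with no call under equal totals (log2 difference -0.64, limma adjusted p = 0.07). Pecam1 (CD31), an adhesion protein of the same junctions, was at 209, 182 and 281 CPM at 24 h and 191, 98.9, 174 and 133 CPM at 48 h (log2 difference -0.60 ± 0.19 (SE), limma adjusted p = 0.013), a fall that missed the threshold under both other scalings (-0.35 and -0.13) and without library D (-0.43) or 2 (-0.42) or both 2 and 4 (-0.27). Of 12 genes of pericytes and smooth muscle, 5 fell (41.7%) and 2 rose (median -0.52), and none fell with equal totals. Myh11, the myosin of smooth muscle, was at 27.6, 36.4 and 60.5 CPM at 24 h and 16.2, 13.6, 12.8 and 26.9 CPM at 48 h (log2 difference -1.19 ± 0.30 (SE), limma adjusted p = 0.0036), likewise not called with equal totals (-0.73). Rgs5, a pericyte gene, was called lower (log2 difference -0.44) but not under the median-ratio scaling (-0.19) nor without library D, library 2 or libraries 2 and 4. Of 3 epicardial genes Aldh1a2 rose, and of 7 Schwann cell and adipocyte genes Cnp and Plin4 fell.

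Red cell genes were lower at 48 h. All 7 tested entries of the globin and red cell list fell (median -1.53). The count was 5 and 3 under the other scalings and 3 without library A. Hbb-bt and Hbb-b2 had the same position and the same values in every library, so the entries are not all separate genes. The 10 entries of the list in the table summed to 577 to 1385 CPM at 24 h and 226 to 443 CPM at 48 h. At 4 h the sum was 2107 to 3139.6 CPM. These sums count the shared position more than once. Hba-a1, an alpha globin whose transcript is 99.8% identical to that of Hba-a2, was at 382, 251 and 155 CPM at 24 h and 80.1, 54.8, 125 and 92.3 CPM at 48 h (log2 difference -1.53 ± 0.47 (SE), limma adjusted p = 0.012). It missed the threshold with equal totals (-1.05), without library A (-1.21) and without libraries 2 and 4 (-1.29). Of 6 atrial genes, Myl7, Sln, Myl4 and Dkk3 fell and Nppa rose, and with Nppa the list summed to 411 to 669 CPM at 24 h and 574 to 1221 CPM at 48 h. Myl7, Sln and Myl4 are genes of atrial muscle. Myl7 was at 46.2, 17.0 and 61.3 CPM at 24 h and 2.63, 1.49, 12.2 and 20.6 CPM at 48 h (log2 difference -2.40 ± 0.65 (SE), limma adjusted p = 0.0056). The calls were less firm for Sln (log2 difference -1.85, limma adjusted p = 0.048), lost in 13 of 19 alternatives, and for Myl4 (log2 difference -2.27, limma adjusted p = 0.014), lost in 4 of 20. The sum of these 3 was 45.5 to 190.4 CPM at 24 h and 4.35 to 63.3 CPM at 48 h, so libraries of both times held some, and their part in the other results was not tested.

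Early response genes fell about as often as all genes. Of 24 immediate early genes, 7 fell (29.2%, against 32.6% of all genes) and 2 rose (median -0.45), with 17 and 1 without libraries 1 and 3, 4 and 4 without libraries 2 and 4, and 13 and 2 without library 1. Egr1, an immediate early transcription factor, was at 314, 139 and 164 CPM at 24 h and 35.5, 18.0, 65.7 and 20.4 CPM at 48 h (log2 difference -2.62 ± 0.54 (SE), limma adjusted p = 7.2e-04). Zfp36 (tristetraprolin), which destroys cytokine mRNAs, was at 339, 206 and 268 CPM at 24 h and 61.6, 34.03, 69.5 and 37.9 CPM at 48 h (log2 difference -2.43 ± 0.40 (SE), limma adjusted p = 1.1e-04). Fos, a subunit of AP-1, did not pass the test, at 47.4, 52.3 and 41.3 CPM at 24 h and 43.1, 9.79, 35.5 and 12.3 CPM at 48 h (log2 difference -1.12 ± 0.48 (SE), limma adjusted p = 0.066), with libraries 1 and 3 above 2 and 4. The 2 that rose were Nr4a3 (log2 difference 1.37) and Egr3 (0.60).

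Mt1 and Mt2, metallothioneins that bind zinc and are induced by glucocorticoids and metals, fell together. Mt1 was at 883, 744 and 1062 CPM at 24 h and 303, 121, 370.3 and 93.5 CPM at 48 h (log2 difference -2.22 ± 0.37 (SE), limma adjusted p = 1.3e-04), and Mt2 at 733, 676 and 906 CPM at 24 h and 271, 71.1, 291 and 43.9 CPM at 48 h (log2 difference -2.60 ± 0.51 (SE), limma adjusted p = 4.9e-04). Libraries 1 and 3 held intermediate levels, and the log2 difference of Mt2 was -3.75 without them and -1.44 without libraries 2 and 4. Of 21 genes of the oxidative stress list, 7 fell (33.3%, near the 32.6% of all genes) and Srxn1 rose (median -0.23). Of 18 clock genes, 9 fell and Clock rose (median -0.63). Per1, a clock gene that glucocorticoids also induce, was at 148, 219 and 237 CPM at 24 h and 86.5, 36.7, 109 and 48.2 CPM at 48 h (log2 difference -1.61 ± 0.35 (SE), limma adjusted p = 0.0012), and Dbp, a clock output factor, at 10.3, 16.9 and 19.8 CPM at 24 h and 2.74, 5.88, 5.11 and 13.1 CPM at 48 h (log2 difference -1.24 ± 0.36 (SE), limma adjusted p = 0.0084), although Dbp missed the threshold with equal totals (-0.80), without library D (-1.05) and without libraries 1 and 3 (-0.71). The hour of collection is not given in the labels.

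Among 25 cell death genes, 10 fell (40%, against 32.6% of all genes) and 2 rose (median -0.22). Bcl2l1, a protein that keeps cells alive, was at 198, 189.6 and 235 CPM at 24 h and 76.5, 50.7, 94.9 and 45.7 CPM at 48 h (log2 difference -1.67 ± 0.25 (SE), limma adjusted p = 4.1e-05). Casp4, the caspase that senses bacterial lipopolysaccharide and opens pores through gasdermin, was at 28.4, 31.2 and 19.2 CPM at 24 h and 7.63, 4.995, 8.72 and 3.43 CPM at 48 h (log2 difference -1.96 ± 0.38 (SE), limma adjusted p = 4.5e-04). Both fell without overlap. Casp1, Gsdmd and Mlkl, also of lytic death, fell too. Bnip3l, a mitochondrial protein of the BCL2 family, was among those that rose.

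The remaining lists had medians on both sides of that of all genes, with few members called in most. Of all genes, 9.32% were called higher and 32.6% lower. In the growth factor list, 4 of 28 members rose and 8 fell (median -0.25), and Bmp4, a ligand of the BMP family, was at 16.9, 28.9 and 22.3 CPM at 24 h and 5.88, 3.24, 7.92 and 5.34 CPM at 48 h (log2 difference -1.86 ± 0.32 (SE), limma adjusted p = 1.5e-04). Of the heat shock genes, 1 of 16 members rose and 5 fell (median -0.30). Of genes driven by the stress factor ATF4, 1 of 15 members rose and 2 fell (median -0.05). Of the enzymes and receptors of sphingolipids, 1 of 31 members rose and 7 fell (median -0.18). The sterol synthesis genes stood even, as 3 of 21 members rose and 3 fell (median 0.02). The proteasome list held the falls of Psmb8 and Psmb9, and 0 of 37 members rose and 17 fell (median -0.43), with 5 and 4 falling under the other scalings and 9 to 10 without library A, D, 2 or 4.

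Ribosomal protein genes were taken as 2 lists. Of the cytosolic ones, 1 of 79 members rose and 2 fell (median -0.07). With equal totals 17 rose, where 3229 of all 12555 genes did. The 2 that fell were Rps27 (log2 difference -0.85) and Rpl3l, a form of a ribosomal protein that replaces Rpl3 in striated muscle. Rpl3l was at 193, 269.5 and 334 CPM at 24 h and 137, 89.2, 120.0 and 109 CPM at 48 h (log2 difference -1.20 ± 0.21 (SE), limma adjusted p = 1.6e-04), and Rpl3 itself was the one that rose (0.79). Of the mitochondrial ribosomal proteins, 0 of 78 members rose and 30 fell (median -0.46), which is 38.5% against 32.6% of all genes, with 12 and 1 falling under the other scalings and 13 without library D. In the list of histone transcripts and nuclear RNAs, 2 of 12 members rose and 2 fell (median -0.25). Xist was at 84.0, 49.5 and 46.9 CPM at 24 h and 110.3, 141, 115 and 183 CPM at 48 h (log2 difference 1.20 ± 0.32 (SE), limma adjusted p = 0.0055), and at 0.94 without libraries 2 and 4 it missed the threshold (limma adjusted p = 0.068).

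One of the deepest falls was that of Gm10052, known here by its predicted-gene symbol, on chromosome 15 of mm10 (103240432 to 103244585). It was at 96.8, 55.0 and 62.6 CPM at 24 h and 0.271, 1.34, 2.20 and 2.37 CPM at 48 h (log2 difference -4.89 ± 0.39 (SE), limma adjusted p = 8.0e-08). Its transcript is 100% identical to that of Hnrnpa1, an RNA-binding protein, over 960 bases, 98.7% to Gm5643 and 97.7% to Hnrnpa1l2-ps2. The sum over these copies was 154 to 243 CPM at 24 h and 152 to 224 CPM at 48 h, which overlapped. The same held for Apoo-ps, a copy of Apoo, which had 8.95 to 19.5 CPM at 24 h and 0 CPM in the 4 libraries at 48 h while the sum of both genes was 55.1 to 60.0 CPM and 53.0 to 79.8 CPM. Over the whole table Apoo-ps was also at no more than 3 estimated reads in the 8 libraries of 48 h and at 6.01 CPM or more in the 16 others. The assignment of reads between near-identical genes moved with the 48 h libraries, and its part in the other results was not tested. Of the 155 genes searched, 12 had a transcript copy at 95% identity or more over at least 100 bases and 25% of the transcript.

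The same interval was measured in hearts injected with AC modRNA (3 libraries at 24 h and 4 at 48 h), which share no library with the Luc comparison. With AC, 5589 genes differed between 48 and 24 h (44.5%), 2382 higher (19.0%) and 3207 lower (25.5%). Of the 5258 genes called with Luc, 3465 were called with the same sign with AC, which is 65.9% of the Luc calls and 62.0% of the AC calls, and 15 were called with the opposite sign. They included 980 of the 1170 that rose and 2485 of the 4088 that fell. Across genes the log2 differences had a Pearson's r of 0.79, a description over genes that are not independent replicates, from libraries that share the split in sample names between the times.

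The difference of the AC and Luc changes itself passed a limma adjusted p of 0.05 for 322 genes (2.56%), of which 280 changed more upward with AC (2.23%) and 42 more downward (0.335%). Of the 106 genes described with values 14 were among them. Cell division stood out, as 40 of 45 cell cycle genes rose with AC and 32 passed the test of the difference. That count depended on the fit. It was 15 with only the libraries of the groups compared, and 1 of 9 genes tested at a mean of at least 10 CPM. With Luc these genes differed between 48 h libraries 1 and 3 and libraries 2 and 4. The difference from AC was not computed without either pair. Mki67 changed by 3.01 with AC and 0.08 with Luc (difference 2.93 ± 0.63 (SE, log2), limma adjusted p = 0.015), and Top2a by 3.55 and 0.71 (difference 2.84 ± 0.52 (SE, log2), limma adjusted p = 0.0058). In the AC libraries Mki67 was at 0.858 to 6.21 CPM at 24 h and 21.5 to 40.3 CPM at 48 h.

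Of the 36 matrix genes, 26 rose with AC and 16 passed the test of the difference. With only the libraries of the groups compared 4 passed, and 10 of 31 did at a mean of at least 10 CPM. Col1a1 changed by 3.32 with AC and 0.94 with Luc (difference 2.38 ± 0.50 (SE, log2), limma adjusted p = 0.014), and Postn by 2.03 and 0.26 (difference 1.77 ± 0.29 (SE, log2), limma adjusted p = 0.0027). The MHC class II genes H2-Aa and Cd74 differed too, with log2 differences with AC and Luc of 0.21 and -1.19 for H2-Aa (difference 1.40 ± 0.32 (SE, log2), limma adjusted p = 0.021) and 0.28 and -1.27 for Cd74 (difference 1.54 ± 0.39 (SE, log2), limma adjusted p = 0.035). For the interferon-stimulated genes, by contrast, 23 fell with AC and none of the 31 passed the test of the difference, a miss that does not show equal changes. Neutrophil genes rose in 2 of 16 and fell in 4 with AC (median -0.26), and none of the 16 passed that test. Library c of AC at 24 h stood above a and d, at 59.6 CPM of S100a8 against 9.91 and 17.8 CPM, and at 26.8 CPM of Csf3r against 6.52 and 4.47 CPM. Without library c, 3 neutrophil genes rose and 3 fell with AC (median 0.43), 22 interferon-stimulated genes fell, 40 cell cycle and 25 matrix genes rose, and the difference was called for 399 genes.

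The largest differences in favour of AC among genes of at least 10 CPM included Aplnr, the apelin receptor of vessels (difference 2.66 ± 0.58 (SE, log2), limma adjusted p = 0.015). The largest in the other direction were Timp4, an inhibitor of metalloproteinases found in heart muscle (difference -2.57 ± 0.69 (SE, log2), limma adjusted p = 0.046), Fmo2, a flavin monooxygenase (difference -2.41 ± 0.40 (SE, log2), limma adjusted p = 0.0027), and Spock2, a proteoglycan (difference -2.33 ± 0.59 (SE, log2), limma adjusted p = 0.034). With Luc these were at 17.0, 5.59 and 15.4 CPM at 24 h and 43.2, 11.9, 15.7 and 6.91 CPM at 48 h for Timp4, 57.2, 20.7 and 34.3 CPM at 24 h and 30.7, 19.5, 42.1 and 18.1 CPM at 48 h for Fmo2 and 31.1, 9.24 and 23.1 CPM at 24 h and 19.96, 6.69, 21.8 and 3.68 CPM at 48 h for Spock2. None of the 3 was called with Luc alone. The number of genes that differed between AC and Luc depended strongly on the fit, from 0 with a replicate block (1308 at an unadjusted p under 0.05) and 56 with the 4 groups alone to 991 with array weights.

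**Figure D5:**
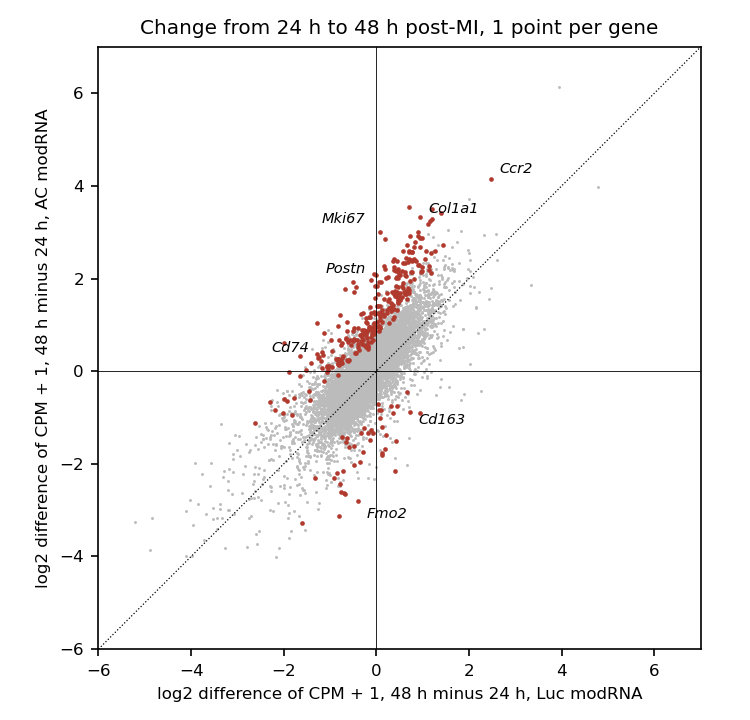
Log2 difference between 48 and 24 h with Luc modRNA (horizontal) and AC modRNA (vertical) for each of the 12555 genes tested, with the 322 genes whose changes differed in colour. Cell cycle and matrix genes such as Mki67, Col1a1 and Postn lie above the dotted line of equal change, and Fmo2 and Cd163 below it.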

How the data were processed

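Total RNA of the LV was sequenced from TruSeq Stranded mRNA libraries. The authors deposited 1 table of 24 libraries in CPM to which 1 had been added (its lowest value is exactly 1), on the genome build mm10 per the labels. The paper's methods describe another table of the series, so the aligner, the annotation and the normalization of these CPM are not given in the sources used here. For that other table, of 10 libraries and not used here, they state an expectation-maximization count that divides reads among matching genes. No column of the table used lacked a sample (0 unmapped).

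1 was subtracted, and the 12555 genes that averaged 1 CPM or more across the 24 libraries were tested on log2(CPM + 1), a scale that understates the change of low genes. The fit used limma 3.58.1 in R 4.3.3 (lmFit, eBayes with trend) over 7 groups with 17 residual degrees of freedom, and Benjamini-Hochberg adjustment over all genes at 0.05. Reads were estimated from the smallest step between values. Of the values under 1 CPM, 84.5% to 86.4% were whole multiples of it within 0.03 reads, too few for a count test, and depth error therefore covers counting only approximately. Transcript copies were searched with blastn 2.17.0. Other steps used Python 3.11.15 with pandas 2.3.3, numpy 2.4.6 and matplotlib 3.10.9. The limma script was tested on simulated data.

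Named genes were the 10 largest increases and 10 largest decreases among called genes of at least 10 CPM without overlap, the lead genes of 42 lists, the 2 called members of each list with the largest change and at least 10 CPM, and the 3 largest differences from AC in each direction. Values are given for 106 of these 154 genes, and some of the others are not reported here. Other list members were named after their values were seen. The members and lists were chosen with earlier results of these data known. The alternatives tried were a pseudocount of 0.1, no subtraction of 1, other filters, no trend, robust estimation, array weights, median-ratio and equal-total scaling, the compared groups alone, a replicate block and each library left out. Limma-voom on estimated reads and the fits without libraries 1 and 3 or 2 and 4 at 48 h were chosen after seeing the data.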

Additional observations from a re-analysis of the deposited data

Results flagged for a closer look

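In 8 of 106 genes checked, 1 of the 4 libraries at 48 h stood far from the other 3 by the gap to its nearest neighbour. Chance gives about 1 in 20 only for normally distributed values, and whether these CPM are so was not tested. In each of the 8 genes the library that stood apart was the highest. Library 3 stood high in Cxcl10 at 7.66 CPM and in Mx1 at 7.77 CPM. Library 1 stood high in Psmb9 at 6.42 CPM, in Cd163 at 24.0 CPM and in Cpt1b at 428 CPM. Library 4 stood apart in Cenpf at 21.1 CPM, in Mybpc3 at 1591 CPM and in Kcnh2 at 47.0 CPM.

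The change from 24 to 48 h differed between AC and Luc, by the limma test of the difference itself, in 14 of the 106 genes. On the log2 scale it was more upward with AC by 2.93 in Mki67, 2.84 in Top2a, 2.66 in Aplnr, 2.38 in Col1a1, 1.77 in Postn, 1.69 in Ccr2, 1.54 in Cd74, 1.40 in H2-Aa and 1.27 in Psmb8. It was more downward with AC in Timp4 (-2.57), Fmo2 (-2.41), Spock2 (-2.33), Cd163 (-1.60) and Lyve1 (-1.35). Postn and Fmo2 passed the threshold in 25 of 26 alternatives, and Timp4 in 7 of 26.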

How the results depend on the processing

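Of the 88 named genes called between 48 and 24 h with Luc, 58 kept their sign and their call under every alternative. Over 2110 pairs of a gene and an alternative, 1934 stayed on their side of the threshold with the same sign, 110 lost the call, 35 gained it and 31 changed sign. Each sign change was in a gene that was not called, except Rgs5. With median-ratio scaling, Luc had 2025 genes higher and 2053 lower, the AC minus Luc difference had 167 higher and 125 lower, and the log2 difference with Luc was 0.11 for Lyve1 and 0.12 for Pdgfra. With equal totals, Luc had 3229 higher and 948 lower, AC 5235 higher and 1161 lower, the AC minus Luc difference 77 lower, and the log2 difference was 0.081 for Il1b, 0.32 for Lyve1, 0.34 for Pdgfra, 0.19 for Mmp14, 0.039 for Cox5a, 0.13 for Ldha, 0.034 for Rgs5 and 0.074 for Fmo2. The log2 difference with Luc shifted by a median of 0.24 and 0.45 over all genes under these scalings. Why the scalings differ was not tested.

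With genes of at least 10 CPM only, where fewer genes were tested, 523 were higher with Luc, and with AC 3509 were called, 962 of them higher. Without libraries 1 and 3 at 48 h the log2 difference was -0.50 for Mmp3, -0.057 for Slc2a1 and -0.30 for Timp4. Without libraries 2 and 4 it was 0.36 for Lyve1, 0.14 for Mmp14, -0.79 for Mki67, -0.037 for Top2a, -0.70 for Aplnr, 0.061 for Fmo2 and 0.13 for Spock2. Over fits that each lacked 1 library, it ranged from -0.61 to 0.040 for Il1b, -0.33 to 0.052 for Lyve1, -0.21 to 0.57 for Aplnr, -0.28 to 0.47 for Mki67 and -0.062 to 0.77 for Timp4. The Luc calls then ranged from 3737 (without library D) to 5245.

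The 322 genes whose change differed between AC and Luc (280 higher, 42 lower) depended on the fit, and the cause was not tested. A pseudocount of 0.1 gave 205 (166 higher), no filter 495 (443 higher), a mean of at least 10 CPM 71 (52 higher, 19 lower), array weights 991 (848 higher, 143 lower), the compared groups alone 56 (53 higher, 3 lower) and limma-voom 212 (175 higher). With 1 library left out, the counts were 154 (without AC 48 h library 2) to 703 (without Luc 48 h library 4), with 136 to 564 higher and 10 to 139 lower. With the replicate block within each time, limma called 0 genes (0 higher, 0 lower), with 1308 at an unadjusted p under 0.05 against 2009 without the block. AC and Luc libraries of the same letter or number correlated at -0.21 to 0.20 in their deviations from the group means. With so few libraries per group, these values cannot show whether libraries of the same label were handled together. Letters at 24 h and numbers at 48 h gave no pairing for the Luc comparison. Genes at a few reads, such as Csf3 in libraries 2 and 4 at 48 h, are limited by depth.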
